A study of Mus musculus with 8 samples.

Results

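Expression of 10 scavenger receptor genes (Msr1, Marco, Cd36, Cd68, Scarb1, Scarb2, Stab1, Olr1, Cd5l and Mertk) was compared between IL-6-exposed control and Il6ra-deficient mouse macrophages. The genes were taken by name from the 19938 genes measured on the arrays, and all 10 had exactly 1 probe set with a single gene symbol. No filter on low values was applied in the comparison reported, so all 10 entered it. Marrow cells were cultured for 10 days with M-CSF at 10 ng/ml, kept overnight without serum and then given IL-6 at 50 ng/ml for 4 h. Control macrophages (Ctrl, 4 arrays) came from IL6ralpha flox/flox mice, and IL6raKO macrophages (4 arrays) from IL6ralpha flox/flox LysMCre tg/wt mice, in which Cre is driven by the lysozyme M locus of myeloid cells. Both groups thus carried the floxed alleles and received IL-6, while only IL6raKO mice carried Cre. The age and sex of the mice are not given in the labels, and without arrays from cells that received no IL-6 the response to IL-6 itself was not measured.

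Scavenger receptors are structurally unrelated membrane proteins that bind modified lipoproteins, anionic polymers, microbes and dying cells. In macrophages they feed cargo to lysosomes, and the cholesterol that arrives this way is stored as ester droplets or exported by ABC transporters. Msr1 and Marco are the collagen-like class A receptors, Cd36, Scarb1 and Scarb2 form the class B family, Olr1 (LOX-1) is a C-type lectin-like receptor for oxidised LDL, Stab1 is a large endocytic receptor of macrophages and sinusoidal endothelium, and Cd68 is a heavily glycosylated protein mostly found in late endosomes and lysosomes. Cd5l (AIM) is not a receptor but a secreted protein built of the cysteine-rich repeats found in class A receptors, and Mertk is a receptor tyrosine kinase for bridging proteins that coat dying cells.

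The question put by the design is which genes differ under IL-6 when the IL-6 receptor alpha chain is targeted. As only IL6raKO mice carried Cre, the loss of the receptor and the presence of Cre cannot be told apart here. Il6ra, the targeted gene, was at 8.43, 8.40, 8.40 and 8.45 in Ctrl replicates 1 to 4 and at 7.75, 8.10, 7.91 and 7.92 in IL6raKO replicates 1 to 4 (log2 expression), a difference of -0.50 (SE 0.07, limma adjusted p = 0.0607 over all genes). Every IL6raKO array lay below every Ctrl array, with a residual signal. Stat3, the transcription factor that the receptor activates, fell by 0.57 (SE 0.07, limma adjusted p = 0.0348), and Lyz2, whose locus drives Cre, differed by -0.11 (SE 0.07), or by -0.02 after quantile normalization was applied again and by -0.06 to -0.17 with an array left out. The macrophage markers Adgre1 and Csf1r were bright in all 8 arrays (12.22 to 12.47 and 12.30 to 12.40). The mean of 11 measured macrophage markers was 11.02 to 11.11 in Ctrl and 10.97 to 11.06 in IL6raKO. Of these 11, 8 were lower in IL6raKO and 3 higher (median -0.03), and 0 were called. Fcgr1 had the widest difference, -0.24 (SE 0.11), and was the 1 marker of the 11 with an unadjusted p under 0.05 in limma, beside 7.28% of all genes. In limma, 6 of 19938 genes (0.0301%) differed at an adjusted p under 0.05, all 6 lower in IL6raKO, and the count was 0 or 1 whenever 1 array was left out. The labels call the arrays biological replicates but do not say that each was a separate mouse, so the p-values cover no more than the spread among these arrays.

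No scavenger receptor gene passed the test over all genes. Of the 10, 0 were called in limma (adjusted p between 0.535 and 0.999), beside 0.0301% of all genes. Olr1 was 0.56 higher in IL6raKO on the log2 scale, with no overlap between the groups. Cd5l was 0.29 lower and Scarb1 0.16 lower, each with overlapping groups. The other 7, which include the receptors Msr1 and Cd36, differed by less than 0.12. At an unadjusted p under 0.05, 2 of the 10 differed (Olr1 and Cd5l), where 7.28% of all genes did, and the median difference of the 10 was 0.05, beside -0.01 for all genes. The median size of the difference, regardless of sign, was 0.07 for the 10 and 0.06 for all genes.

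**Figure D1:**
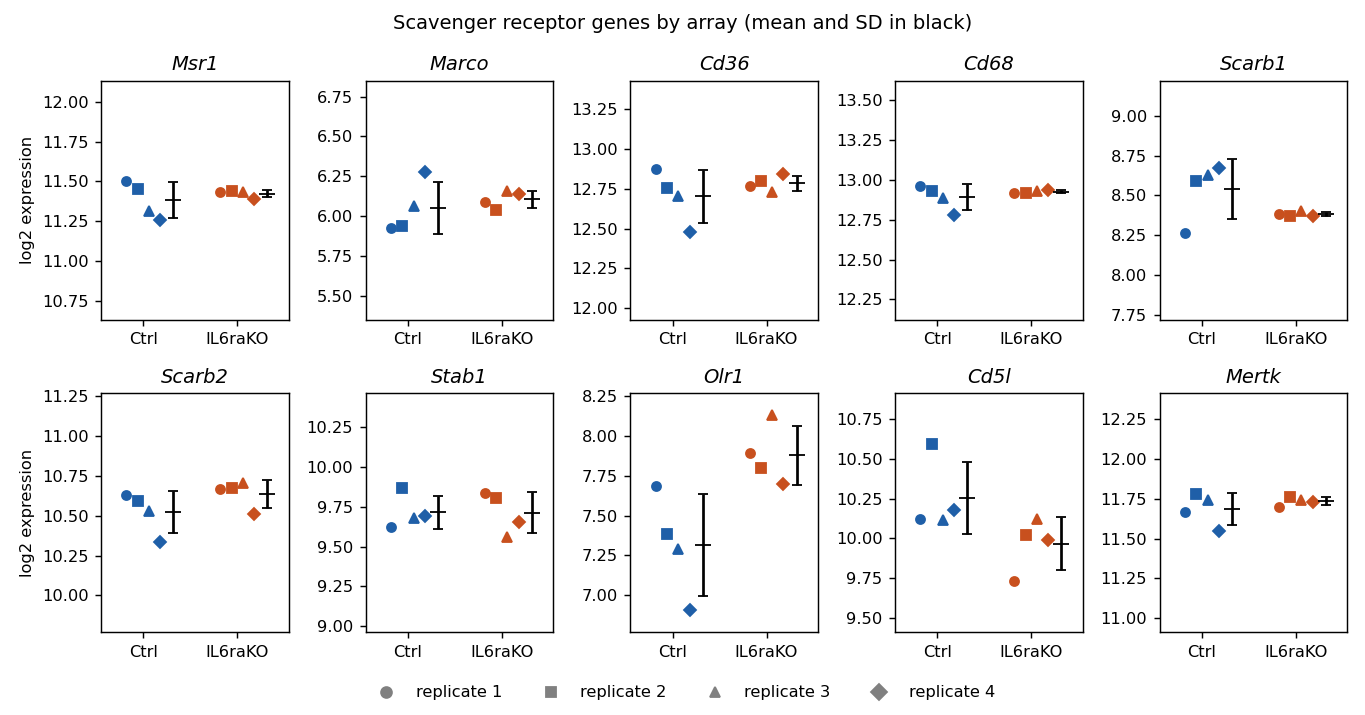
Log2 expression of the 10 scavenger receptor genes in each array, 1 panel per gene and 1 symbol shape per replicate number, with the group mean and SD (n = 4 arrays) in black. Every panel spans the same range on the log2 scale, so that spreads can be compared between panels. The Olr1 values of IL6raKO (7.70 to 8.13) lie above those of Ctrl (6.91 to 7.68), while the groups overlap in the other 9 panels.

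Olr1 encodes LOX-1, a receptor for oxidised LDL that is best known from endothelium and is inducible in macrophages. Its log2 expression was 7.68, 7.38, 7.29 and 6.91 in Ctrl replicates 1 to 4. In IL6raKO replicates 1 to 4 it was 7.89, 7.80, 8.13 and 7.70. The groups did not overlap, but only just, with 7.683 in the highest Ctrl array (replicate 1) and 7.696 in the lowest IL6raKO array (replicate 4). Ctrl replicate 4 was the lowest of all 8 arrays. The mean was 7.32 ± 0.32 (SD, n = 4) for Ctrl arrays and 7.88 ± 0.18 (SD, n = 4) for IL6raKO arrays. The difference of 0.56 (SE 0.14, 95% confidence interval 0.25 to 0.88) corresponds to a 1.48-fold level (interval 1.19 to 1.84). By size it ranked 9 of the 19938 genes, and 5 among differences in the higher direction. Its limma adjusted p was 0.535 over all genes, with an unadjusted p that ranked 87. The SD within groups was 0.26, which lay at percentile 97.6 of all genes. Groups that did not overlap, with IL6raKO higher, were found for 2.07% of all genes and for 1 of the 10 scavenger receptor genes.

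The size of the Olr1 difference rested in part on Ctrl replicate 4, while its direction did not. Without that array it was 0.43, and with any other single array left out it lay between 0.48 and 0.69. Ctrl replicate 4 also stood apart over all genes: on the principal component that held most variance (23.6%) it was at 21.5 and the other arrays between -6.6 and 4.8. The same array had the highest mean of 10 mast cell and basophil markers. That mean was 6.03, 6.23, 6.23 and 6.55 in Ctrl replicates 1 to 4. In IL6raKO replicates 1 to 4 it was 5.82, 6.15, 6.11 and 6.33, so replicate 4 was the highest in both groups. Olr1 was lowest in replicate 4 of both groups (6.91 and 7.70). By group, 9 of these 10 markers were lower in IL6raKO and 0 were called (median -0.13), with -0.45 for the basophil protease Mcpt8 (SE 0.34, size rank 29 of all genes) and -0.38 for the carboxypeptidase Cpa3 (SE 0.27, size rank 79). Of the 10 markers, 7 lay within the range of dim probe sets described below for olfactory receptor genes. Cpa3 read 9.17 in Ctrl replicate 4 and 7.39 to 8.55 in the other 7 arrays. When the marker mean was entered as a covariate, a fit added after seeing the data, the Olr1 difference was 0.42 (limma adjusted p = 0.863). That covariate was itself highest in Ctrl replicate 4, and 9 of its 10 markers were lower in IL6raKO. The fit therefore cannot tell these cells apart from the genotype or from that array. The part of these cells in the result was not tested. Endothelial markers, of interest because endothelium makes LOX-1, had near-equal means in both groups: 5.73 to 5.85 over 10 genes in Ctrl and 5.79 to 5.85 in IL6raKO, and 9 of the 10 lay within the dim range.

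Promoter sequences are shown for Olr1, whose difference was the widest, for Cd5l, whose difference was widest in the lower direction, and for Cd68, a lysosomal gene that hardly differed and is the other promoter with an AP-1 motif. They are the 250 bases before the annotated start, 5′ to 3′ on the gene's own strand, from RefSeq on GRCm38.p6: Olr1 on the minus strand (chr6:129507166-129507415), Cd5l on the plus strand (chr3:87357631-87357880) and Cd68 on the minus strand (chr11:69666171-69666420). Capitals mark the AP-1 motif TGAGTCA.
Olr1: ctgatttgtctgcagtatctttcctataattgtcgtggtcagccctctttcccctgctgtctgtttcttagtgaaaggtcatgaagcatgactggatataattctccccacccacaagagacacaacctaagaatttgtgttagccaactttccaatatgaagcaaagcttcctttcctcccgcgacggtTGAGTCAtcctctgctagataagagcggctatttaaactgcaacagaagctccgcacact
Cd5l: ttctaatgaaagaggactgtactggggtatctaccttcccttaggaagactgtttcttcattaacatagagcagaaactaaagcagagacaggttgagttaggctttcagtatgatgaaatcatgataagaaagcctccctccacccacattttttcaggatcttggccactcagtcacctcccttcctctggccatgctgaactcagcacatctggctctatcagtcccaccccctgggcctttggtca
Cd68: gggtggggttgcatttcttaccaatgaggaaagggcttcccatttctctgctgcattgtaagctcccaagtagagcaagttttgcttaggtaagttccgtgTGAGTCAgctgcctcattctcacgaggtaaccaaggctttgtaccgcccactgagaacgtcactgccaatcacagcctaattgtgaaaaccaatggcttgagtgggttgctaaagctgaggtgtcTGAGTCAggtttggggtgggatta
AP-1 is the dimer of Fos and Jun proteins. The motif TGAGTCA, searched on both strands, occurred once in the Olr1 window, beginning 60 bases before the start, and at 149 and 24 bases before the start of Cd68. Promoter entries were found for 8 of the 10 genes (not for Msr1 and Scarb1), and 2 of those 8 held the motif, beside 4.46% of 32851 promoter windows of the same length. The STAT motif TTCNNNGAA was in 0 of the 8 windows (7.02% of all windows), the PU.1 motif GAGGAAGT in 0 of 8 (2.44%), and the nuclear receptor half-site AGGTCA in 2 of 8 (14.02%), those of Cd36 and Olr1. These are matches of letters in a short window, and none of these factors was measured at these promoters.

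The genes around Olr1 were also read. Olr1 lies in a cluster of C-type lectin-like receptor genes. Of the 6 nearest measured genes, 3 on each side, 5 were higher in IL6raKO and 1 lower (median 0.08). Over all genes, 9135 of 19938 were above 0, and the 6 neighbours of Marco also had 5 higher and 1 lower (median 0.03). Clec1a, next but 1 to Olr1, was at 6.61, 6.45, 6.79 and 6.58 in Ctrl replicates 1 to 4 and at 6.88, 6.70, 6.80 and 7.05 in IL6raKO replicates 1 to 4, a difference of 0.25 (SE 0.09, limma adjusted p = 0.647) with overlapping groups. Clec7a, the beta-glucan receptor dectin-1 and the next gene to Olr1, differed by 0.16 (SE 0.08), and by 0.08 without Ctrl replicate 4. The autophagy gene Gabarapl1, on the other side, differed by 0.09. None of the 6 neighbours of Olr1 was called, and none differed by as much as Olr1. The part of gene position in these values was not tested.

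Cd5l, the secreted member, had the widest difference in the lower direction. Its log2 expression was 10.12, 10.59, 10.12 and 10.18 in Ctrl replicates 1 to 4. It was 9.73, 10.02, 10.12 and 9.99 in IL6raKO replicates 1 to 4. Ctrl replicate 2 stood well above the other 7 arrays and IL6raKO replicate 1 well below them, and the other 6 arrays spanned 9.99 to 10.18. The group means were 10.25 ± 0.23 (SD, n = 4) and 9.97 ± 0.17 (SD, n = 4), which put IL6raKO at 81.9% of Ctrl. The difference was -0.29 (SE 0.12, 95% confidence interval -0.54 to -0.03, limma adjusted p = 0.669). Those end arrays carried much of it, since it was -0.17 without Ctrl replicate 2 and -0.21 without IL6raKO replicate 1. It was -0.24 with the mast cell and basophil covariate.

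The genes around Cd5l also leaned to the lower side. All 6 nearest measured genes were lower in IL6raKO (median -0.20), where 54.2% of all genes were below 0, and 0 of the 6 were called. The neighbours were Fcrls (-0.21, SE 0.08), an Fc receptor-like gene, Fcrl5 (-0.20, SE 0.12), the ETS-family repressor Etv3 (-0.21, SE 0.09), the adhesion gene Kirrel (-0.25, SE 0.12), the lipid antigen-presenting Cd1d1 (-0.12, SE 0.10) and Fcrl1 (-0.01). Among the other 9 scavenger receptor genes the median of the 6 neighbours lay between -0.03 and 0.08. Cd5l lies on the same chromosome as the targeted gene Il6ra, with 82 measured genes between them, and both groups carried the same floxed Il6ra alleles. The part of gene position in these values was not tested.

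The class B receptors had differences in both directions, none of them called. Scarb1 (SR-BI), which takes up cholesteryl ester from HDL, was at 8.27, 8.59, 8.63 and 8.67 in Ctrl replicates 1 to 4. In IL6raKO it was at 8.39, 8.37, 8.40 and 8.37. The 4 IL6raKO arrays were nearly equal and lay below 3 Ctrl arrays and above Ctrl replicate 1. The difference was -0.16 (SE 0.09, 95% confidence interval -0.34 to 0.03, limma adjusted p = 0.717), and with an array left out it ran from -0.25 without Ctrl replicate 1 (limma adjusted p = 0.385) to -0.11 without Ctrl replicate 4, and it was -0.10 with the mast cell and basophil level as a covariate. Scarb2 (LIMP-2), an abundant protein of the lysosomal membrane, pointed the other way. Its values were 10.63, 10.60, 10.53 and 10.33 in Ctrl and 10.67, 10.68, 10.70 and 10.51 in IL6raKO, a difference of 0.12 (SE 0.08, 95% confidence interval -0.06 to 0.29). IL6raKO replicate 4 fell among the Ctrl values, and without Ctrl replicate 4 the difference was 0.05. Cd36, the fatty acid translocase that also binds oxidised LDL and thrombospondin, was at 12.87, 12.75, 12.71 and 12.48 in Ctrl and at 12.77, 12.80, 12.73 and 12.84 in IL6raKO. It differed by 0.08 (SE 0.08, 95% confidence interval -0.10 to 0.26), and by 0.01 without Ctrl replicate 4, the only array of the 8 below 12.7.

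The class A receptors had differences within their spread. Msr1 (SR-A), the receptor for acetylated LDL, was at 11.50, 11.45, 11.31 and 11.26 in Ctrl and at 11.43, 11.44, 11.43 and 11.39 in IL6raKO. The Ctrl arrays enclosed all IL6raKO arrays, and the difference was 0.04 (SE 0.07, 95% confidence interval -0.11 to 0.19). Marco, a receptor for bacteria and particles that is found on alveolar and marginal zone macrophages, was dim on these arrays. Its values were 5.92, 5.94, 6.06 and 6.27 in Ctrl and 6.09, 6.04, 6.16 and 6.14 in IL6raKO, a difference of 0.06 (SE 0.08, 95% confidence interval -0.12 to 0.23). It was 0.01 without Ctrl replicate 1 and 0.13 without Ctrl replicate 4. As a guide to brightness, the middle 90% of 1027 olfactory receptor genes, which macrophages are not known for, had mean levels from 3.13 to 6.52. Marco was the 1 scavenger receptor gene of the 10 inside that range, so a change in its transcript may not have been visible. Brightness also depends on the probes, and the levels of different genes are not compared here.

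Cd68 and Stab1 also had differences close to 0. Cd68 was between 12.78 and 12.97 in Ctrl and between 12.92 and 12.94 in IL6raKO. Its difference of 0.04 (SE 0.06, 95% confidence interval -0.10 to 0.17) came from Ctrl replicate 4, without which it was -0.0017. Stab1 (stabilin-1), which clears acetylated LDL and the matrix protein SPARC, was at 9.62, 9.87, 9.68 and 9.69 in Ctrl and at 9.84, 9.80, 9.56 and 9.65 in IL6raKO. The difference was -0.0008 (SE 0.08, 95% confidence interval -0.18 to 0.18), with arrays of both groups at either end. Over the 7 genes with a difference under 0.12, the confidence intervals ran from -0.18 to 0.29 at the widest, or from 0.88-fold to 1.22-fold. Differences up to that size lie within what these 8 arrays allow.

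**Figure D2:**
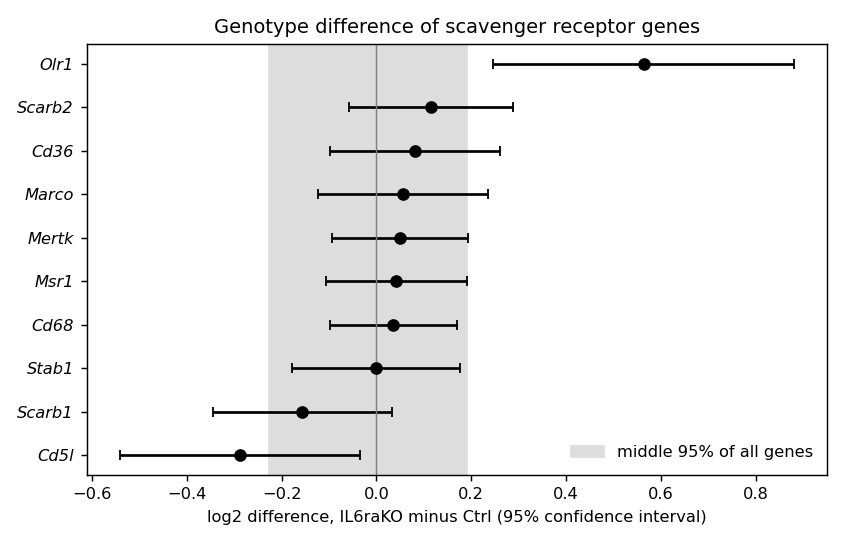
Log2 difference of each scavenger receptor gene, IL6raKO minus Ctrl, with its 95% confidence interval from limma (4 arrays in each group), and in grey the middle 95% of the differences of all 19938 genes (-0.23 to 0.19). Olr1 (0.56) and Cd5l (-0.29) lie outside the grey band, and 8 of the 10 intervals span 0.

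A shared feature of these genes was that Ctrl replicate 4 sat at one end. It was the lowest of the 8 arrays for 6 of the 10 genes (Msr1, Cd36, Cd68, Scarb2, Olr1 and Mertk) and the highest for Marco and Scarb1. Over all genes it was the lowest array for 15.1% and the highest for 23.6%, and among the genes brighter than the median it was lowest for 23.1%. Against the mean of the other Ctrl arrays it was 0.55 lower for Olr1, 0.30 lower for Cd36, 0.25 lower for Scarb2, 0.18 lower for Mertk, 0.16 lower for Msr1 and 0.15 lower for Cd68, and 0.30 higher for Marco. The summed pattern shows in the mean of the 10 genes, 10.01 in Ctrl replicate 4, 10.10 to 10.19 in the other Ctrl arrays and 10.13 to 10.19 in IL6raKO. Without Ctrl replicate 4, the differences of Msr1, Cd36, Cd68 and Mertk all lay between -0.0017 and 0.0067. The IL6raKO arrays were also closer to each other than the Ctrl arrays were: their SD was the smaller one for 9 of the 10 genes, beside 58.9% of all genes. With Ctrl replicate 4 left out it was the smaller one for 8 of the 10, beside 50.3% of all genes.

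**Figure D3:**
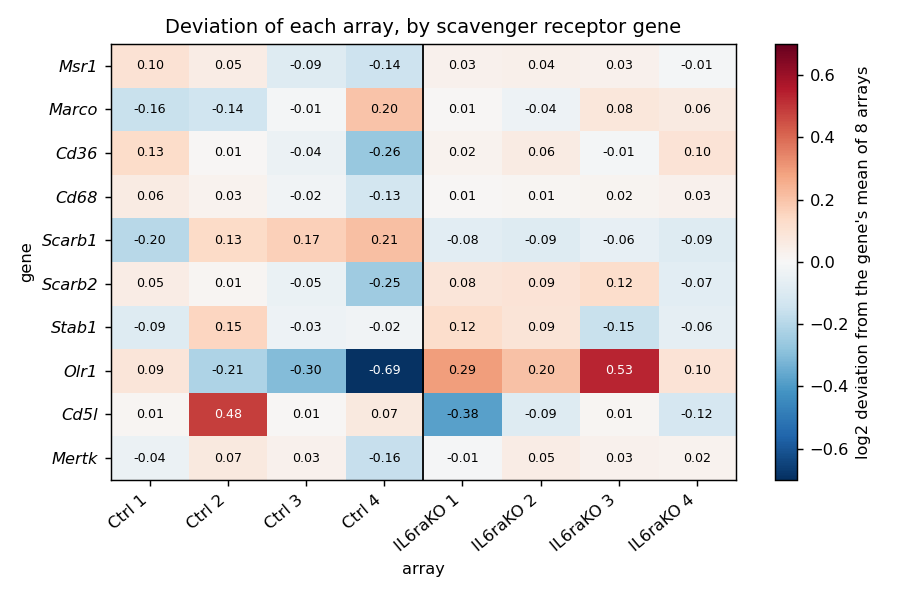
Deviation of each array (columns, Ctrl left of the line and IL6raKO right of it) from the mean of the 8 arrays, for each scavenger receptor gene (rows), on the log2 scale, with the value in each cell and the colour scale at the side. Ctrl 4 is the lowest array for 6 genes, with -0.69 for Olr1 and -0.26 for Cd36, and the largest positive deviations are 0.53 for Olr1 in IL6raKO 3 and 0.48 for Cd5l in Ctrl 2.

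**Figure D4:**
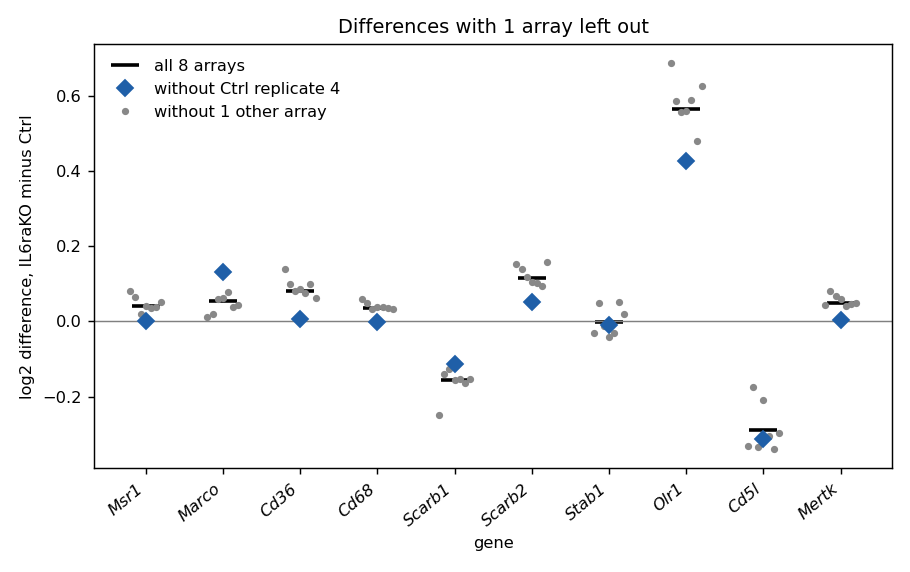
Log2 difference (IL6raKO minus Ctrl) of each scavenger receptor gene with all 8 arrays (black bar), without Ctrl replicate 4 (blue diamond) and without each of the other arrays in turn (grey points). Olr1 stays between 0.43 and 0.69 and Cd5l between -0.34 and -0.17, while Msr1, Cd36, Cd68 and Mertk come to lie at or next to 0 without Ctrl replicate 4.

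Mertk hardly differed, while its ligands and a sister kinase had wider differences. Mertk was at 11.67, 11.78, 11.74 and 11.55 in Ctrl and at 11.70, 11.76, 11.74 and 11.73 in IL6raKO, a difference of 0.05 (SE 0.07, 95% confidence interval -0.09 to 0.19). Gas6, the vitamin K-dependent ligand that links Mertk, Axl and Tyro3 to phosphatidylserine, was at 9.81, 10.06, 10.05 and 9.97 in Ctrl and at 9.75, 9.68, 9.63 and 9.79 in IL6raKO. All IL6raKO arrays lay below all Ctrl arrays, and the difference was -0.26 (SE 0.07, 95% confidence interval -0.42 to -0.10, limma adjusted p = 0.566). Pros1, which encodes protein S, the other such ligand, also had no overlap and differed by -0.13 (SE 0.06, limma adjusted p = 0.701). The Pros1 difference was -0.09 without Ctrl replicate 3, which read 9.76 when the other Ctrl arrays read 9.59 to 9.61. Groups that did not overlap, with IL6raKO lower, were found for 2.37% of all genes.

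The sister kinase Axl pointed the other way. Axl was at 7.36, 7.26, 7.32 and 7.55 in Ctrl and at 7.61, 7.78, 7.71 and 7.47 in IL6raKO. Ctrl replicate 4 lay above IL6raKO replicate 4, and the other arrays did not overlap. The difference was 0.27 (SE 0.08, 95% confidence interval 0.08 to 0.46, limma adjusted p = 0.6). With an array left out it ran from 0.23 without IL6raKO replicate 2 to 0.33 without Ctrl replicate 4. Tyro3, dim at 6.13 to 6.32 in the 8 arrays, differed by 0.03 (SE 0.06), and by -0.0033 without Ctrl replicate 2. None of these passed over all genes.

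**Figure D5:**
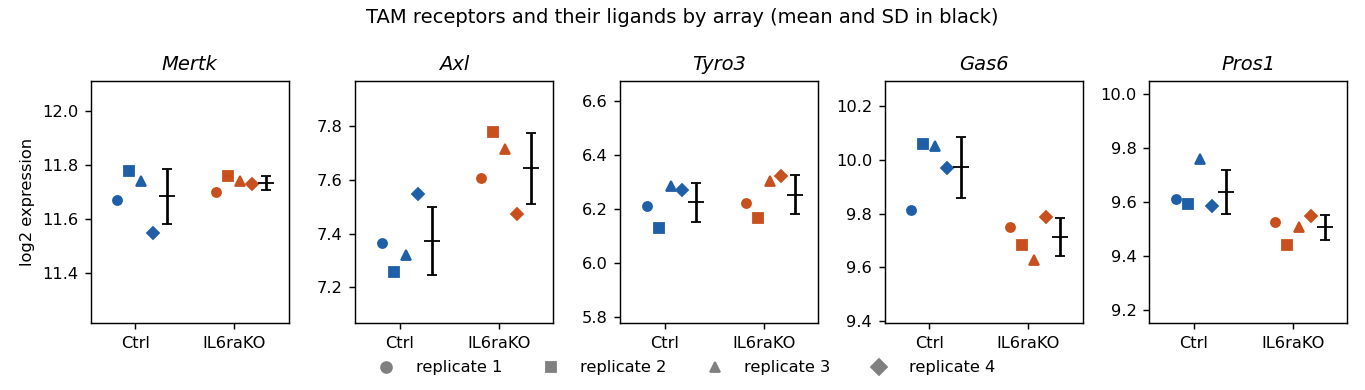
Log2 expression of Mertk, its sister kinases Axl and Tyro3 and their ligands Gas6 and Pros1 in each array, 1 symbol shape per replicate number, with the group mean and SD (n = 4 arrays) in black. Gas6 and Pros1 values of IL6raKO lie below those of Ctrl, Axl is higher by 0.27 on average, and Mertk and Tyro3 overlap.

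Other genes of dying-cell uptake did not pass either. Of 24 measured genes of this kind, 0 were called, 14 were below 0 and 10 above it (median -0.01, as for all genes), and 4 had an unadjusted p under 0.05 (Gas6, Axl, Elmo1 and Timd4), beside 7.28% of all genes. Elmo1, a part of the engulfment machinery that activates Rac, differed by 0.15 (SE 0.06) and Timd4, a phosphatidylserine receptor, by -0.14 (SE 0.06). Elmo1 was higher in every IL6raKO array than in any Ctrl array, and Timd4, whose probe set was in the dim range, was lower in every one. Of the 24 genes, 1 was higher without overlap (2.07% of all genes) and 3 were lower without overlap (2.37% of all genes).

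Of 18 other genes classed as scavenger receptors, 0 were called and 0 had an unadjusted p under 0.05 in limma. Their median difference was -0.01, with 11 below 0 and 7 above it, and 8 of the 18 lay in the dim range. The lowest p-values belonged to Clec7a (0.16), Dmbt1 (-0.18, dim), the lipopolysaccharide coreceptor Cd14 (0.16, SE 0.10) and the engulfment receptor Megf10 (-0.14, dim). Clec7a and Cd14 were lowest and Dmbt1 highest in Ctrl replicate 4, and without it they differed by 0.08, 0.08 and -0.10. Megf10 differed by -0.05 without IL6raKO replicate 3. Stab2, the paralogue of Stab1, differed by -0.07 (SE 0.07), and by -0.03 without Ctrl replicate 3.

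Genes that handle the lipid brought in by these receptors were as level. Of 17 measured genes, 0 were called and 1, Pparg, had an unadjusted p under 0.05, beside 7.28% of all genes. Groups without overlap, with IL6raKO higher, were found for 2 of the 17, beside 2.07% of all genes. Pparg, a nuclear receptor known to drive Cd36, was at 8.08, 8.08, 8.07 and 8.14 in Ctrl and at 8.17, 8.19, 8.27 and 8.27 in IL6raKO, without overlap, a difference of 0.13 (SE 0.06, limma adjusted p = 0.67). Nr1h3 (LXR-alpha) differed by 0.14 (SE 0.07), the lipoprotein receptor Vldlr by -0.16 (SE 0.08, dim) and the fatty acid-binding Fabp5 by -0.12 (SE 0.06). The cholesterol exporters Abca1 and Abcg1 differed by -0.01 (SE 0.06) and -0.09 (SE 0.07), the second by -0.06 without Ctrl replicate 4.

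Lysosomal membrane genes and signalling partners gave 0 calls as well. Among 11 measured lysosomal genes 0 had an unadjusted p under 0.05, with a median of -0.0018, and the lowest p-values belonged to Tfeb (0.09, SE 0.06), Lamp3 (0.16, dim), Lamp5 (0.11, dim) and Lamp2 (0.10, SE 0.09). Without IL6raKO replicate 2, Lamp3 differed by 0.02 and Lamp5 by 0.04, and without Ctrl replicate 4 Lamp2 differed by 0.03. Lamp1 differed by -0.04 (SE 0.06), and by -0.02 without IL6raKO replicate 3. Among 9 measured signalling partners 3 had an unadjusted p under 0.05, beside 7.28% of all genes. They were Jun (0.21, SE 0.07), a subunit of AP-1, Vav1 (-0.15, SE 0.06), a guanine nucleotide exchange factor of blood cells, and Tlr6 (0.15, SE 0.07), which pairs with Tlr2 and Cd36. All 3 had groups without overlap (2.07% of all genes higher and 2.37% lower), and their limma adjusted p lay between 0.616 and 0.68. Myd88 differed by -0.10 (SE 0.07, or -0.04 without Ctrl replicate 4), Tlr2 by 0.03 (SE 0.07) and Tlr4 by 0.04 (SE 0.11), which was -0.0685 without Ctrl replicate 4, its lowest array.

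Beside the mast cell and basophil markers given above, markers of other cells were read in both groups, and 0 of them were called. At an unadjusted p under 0.05 in limma, 1 platelet, 1 stromal, 1 dendritic cell, 1 neutrophil and 2 lymphocyte markers were lower in IL6raKO. In these lists 0 were higher at that threshold, which 7.28% of all genes passed in either direction. Platelets and adipocytes carry Cd36. Of 6 measured platelet markers 0 were called, with a mean of 7.06 to 7.23 in Ctrl and 7.13 to 7.20 in IL6raKO. Single platelet markers differed in both directions, 3 lower and 3 higher, from -0.14 (SE 0.06) for Gp5 to 0.35 (SE 0.17) for Ppbp. All 5 measured adipocyte markers were in the dim range. The means were 5.79 to 5.88 and 5.73 to 5.83 for 8 stromal markers, 6.74 to 6.93 and 6.74 to 6.83 for 8 dendritic cell markers, 5.83 to 6.11 and 5.75 to 5.98 for 10 neutrophil markers, and 6.04 to 6.18 and 5.84 to 6.11 for 3 erythroid markers. Only the 8 lymphocyte markers had means without overlap (5.14 to 5.21 in Ctrl and 5.03 to 5.07 in IL6raKO), with 0 called, 8 of 8 lower and 7 in the dim range. The part of such cells in the values above was not tested. In such bulk RNA, fewer cells of a type and less RNA per cell cannot be told apart.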

How the data were processed

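Per the labels' protocols, biotin-labelled cDNA of 8 cultures was made with an Affymetrix whole-transcript assay for arrays. The authors' deposited values are log2 expression per probe set (35556). The submitters' processing notes name RMA, which corrects background, normalizes by quantiles and sums probes, and R 2.13.1. The genome build is not given in the sources used here. RMA compresses differences of dim probe sets. By GEO's platform annotation, 21789 probe sets had 1 gene symbol, 1621 several and 12146 none. Of several probe sets for a gene (999 genes) the one with the highest mean was used, which left 19938 genes.

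IL6raKO minus Ctrl was fitted with limma 3.58.1 (lmFit and eBayes, R 4.3.3) on the deposited values of all arrays, with no covariate or filter. P-values were two-sided and adjusted by Benjamini-Hochberg over all genes, with calls at an adjusted p under 0.05. The procedure was tested on simulated data. Named with values were the 10 genes, Il6ra, Stat3 and Lyz2 as checks, direct partners and paralogues, and the 4 genes of lowest p in each of 5 pathway lists. Neighbours in gene order and single markers were chosen after their values were seen. The 10 genes and the lists were chosen with earlier results of these data known. RefSeq tables of GRCm38.p6 gave promoters and gene order. The number of arrays limits the precision.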

Additional observations from a re-analysis of the deposited data

Results flagged for a closer look

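In 6 of 82 groups of 4 arrays (41 named genes in both genotypes) a single array stood far from the rest, and chance alone flags about 4.1. Of the scavenger receptor genes this was so for Cd5l, whose Ctrl replicate 2 read 10.59 when its 3 fellow arrays read 10.12 to 10.18. The other 5 sets were Pros1 in Ctrl replicate 3 (9.76, others 9.59 to 9.61), Lamp1 in IL6raKO replicate 3 (12.08, others 12.15 to 12.16), Megf10 in Ctrl replicate 4 (5.68, others 5.55 to 5.57), Nr1h3 in IL6raKO replicate 4 (7.18, others 7.35 to 7.38) and Lamp3 in Ctrl replicate 4 (3.64, others 3.84 to 3.86). The 6 groups involved 5 different arrays.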

How the results depend on the processing

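No scavenger receptor gene was called under any of the 17 alternatives run, 8 of which left out an array, and 165 of 169 differences kept their direction. The 4 that did not were near 0 and came from left-out arrays, with ranges of -0.0423 to 0.0508 for Stab1 and -0.0017 to 0.0609 for Cd68. The number of genes called over all genes was 6 in the analysis reported. It was 22 with a trended and robust variance, 11 among genes above the median level, and 0 with all 35556 probe sets in limma (2124 at an unadjusted p under 0.05). It was also 0 with the mast cell and basophil covariate (1049 at an unadjusted p under 0.05), and 0 or 1 with an array left out. Quantile normalization applied again gave 9, of which 1 was higher. With the replicate number as a block it was 0 (1455 at an unadjusted p under 0.05), and the block gave Olr1 an adjusted p of 0.445 in limma. Over all genes, deviations of same-numbered arrays correlated between -0.01 and 0.04, and those of differently numbered arrays between -0.07 and 0.06. A correlation over all genes cannot show whether single genes followed the replicate number. The mast cell and basophil marker mean was lowest in replicate 1 and highest in replicate 4 of both groups. Whether same-numbered arrays were handled together is not given in the labels and was not tested. Over its alternatives the adjusted p of Olr1 lay between 0.278 and 0.863. Among other named genes, Tlr2 came to -0.0023 with quantile normalization and Tlr4 to -0.0520 with the covariate. With an array left out, Tlr2 lay between -0.0065 and 0.0771, Tlr4 between -0.0685 and 0.1137, Tyro3 between -0.0033 and 0.0577 and Abca1 between -0.0248 and 0.0145. The cause of these changes was not tested. Marco, Tyro3, Dmbt1, Megf10, Timd4, Vldlr, Lamp3 and Lamp5 had no value in the fit of genes above the median level. The signal over background limits what can be said of Marco.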
